A study of Mus musculus with 17 samples.

Results

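Oligodendrocyte precursor cells (OPC) of the mouse cerebral cortex were compared with the other purified cell types of a transcriptome survey, gene by gene and isoform by isoform. The cells were taken by their label, which names the cell type of each library, and they make up 2 of 17 libraries. The comparison groups were endothelial cells, microglia, neurons, astrocytes and the newly formed and the myelinating stage of oligodendrocytes, with 2 libraries each and 12 in all, and 3 libraries of whole cortex were used for orientation and for the estimate of the spread. All animals carry the strain label FVN/Swiss and no genotype, transgene or treatment is named, the tissue is cerebral cortex, and polyadenylated RNA was sequenced. The labels give neither the age of the mice, nor the markers used for purification, nor whether the 2 libraries of a type stem from different mice or from pools. The p-values therefore reflect no more than the variation among these libraries, and that may be technical.

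OPC are dividing glia that persist in the adult brain and give rise to oligodendrocytes, the cells that wrap axons in myelin. They carry the platelet-derived growth factor receptor alpha and the NG2 proteoglycan, receive synapses from neurons, and pass through a newly formed, premyelinating stage before they make myelin sheaths. Growth factor signalling through receptor tyrosine kinases keeps them dividing, while transcription factors of the Olig and Sox families set their identity.

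Levels are FPKM, read densities corrected for the length of the transcript and the size of the library, as the authors deposited them, with values under 0.1 listed as 0.1. Libraries summed to between 205621 and 389838 FPKM, with 30.8% to 45.1% of their genes at this floor. The number of reads is unknown, so counting error at low levels could not be given. Differences are on the log2(FPKM + 1) scale, which understates the change of low genes, and stand for OPC minus the mean of the 6 group means. A gene was called at an adjusted p under 0.05 in limma and a log2 difference of at least 1 in size. In RNA from bulk samples, fewer cells of a type and less RNA per cell cannot be told apart.

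The label was first read against 10 precursor markers. All 10 were higher in OPC than the mean of the other types, where 16.3% of the 14011 genes tested were. Of the 10, 7 were higher than in each other type, where 1.49% of genes were. The markers were chosen with earlier results of these data known, so these counts describe the libraries and do not test the label. Pdgfra, through which platelet-derived growth factor drives OPC division, stood at 627 and 563 FPKM in the 2 OPC libraries, against 0.117 to 89.1 FPKM (median 0.417) in the 12 libraries of the other types. Both OPC libraries lay above all others, and the highest of the others were newly formed oligodendrocytes (log2 difference from the mean 7.38, SE 0.34, limma adjusted p = 6.81e-10). Cspg4, which encodes the NG2 core protein, had 100.4 and 131 FPKM in OPC and 0.178 to 25 FPKM (median 2.24) elsewhere, again with no overlap (log2 difference 4.89, SE 0.14, limma adjusted p = 1.51e-11). C1ql1, a secreted protein of the C1q family that organises synapses, was at 242 and 462 FPKM against 0.1 to 114 FPKM (median 0.727) elsewhere. Lhfpl3, a membrane protein of the LHFPL family, was at 308 and 232 FPKM against 0.1 to 77.2 FPKM (median 1.04) elsewhere. For both genes the OPC libraries stood apart from the other 12, with log2 differences of 6.29 and 6.10.

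The other markers had smaller differences from the mean. Pcdh15, a protocadherin known from hair cells, was at 60.2 and 23.2 FPKM in OPC, against 10.3 and 4.84 in newly formed oligodendrocytes. Xylt1, which starts glycosaminoglycan chains, was at 62.2 and 61.2 FPKM, against 17.8 and 20.3 in astrocytes. Emid1 was at 93.6 and 147 FPKM, against 24.4 and 31.6 in astrocytes. Vcan, the chondroitin sulfate proteoglycan versican, was at 217 and 107 FPKM in OPC, against 108 and 64.5 in newly formed oligodendrocytes, so that the lower OPC library and the higher of that stage were level. Tnr, the matrix glycoprotein tenascin R, was at 166 and 54.9 FPKM in OPC, against 227 and 88.6 in newly formed oligodendrocytes. Ptprz1, a receptor phosphatase that carries chondroitin sulfate, was at 547 and 289 FPKM, against 985 and 1058 in astrocytes. Vcan, Tnr and Ptprz1 were far above the mean of the other types, with log2 differences of 4.48, 4.48 and 4.32, but not above each of them.

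**Figure D1:**
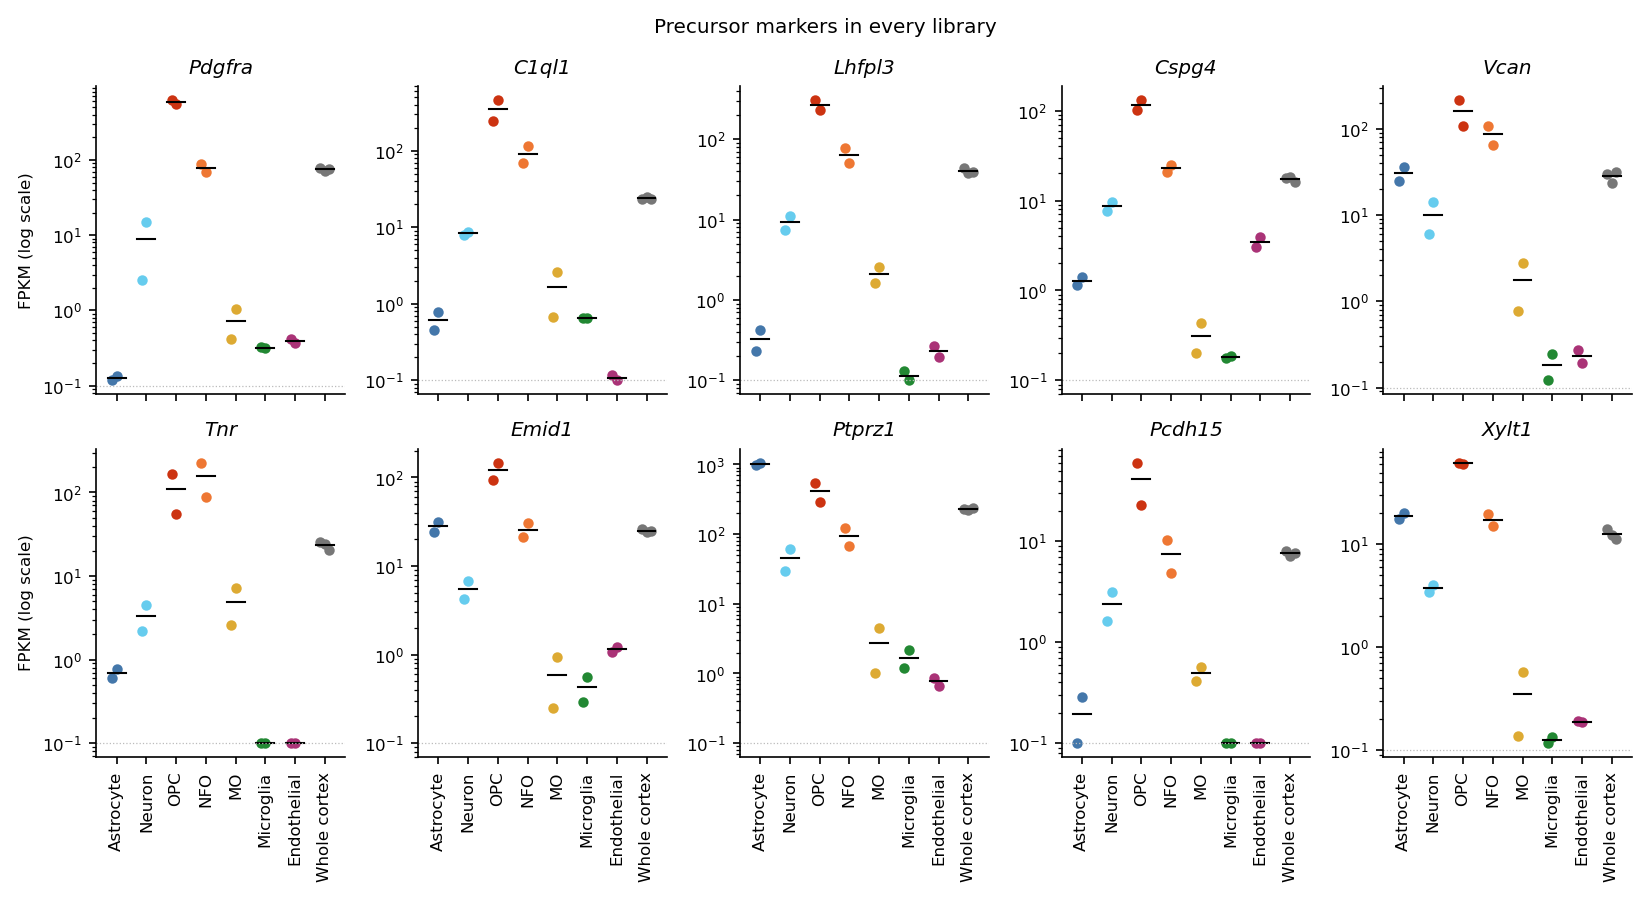
Level of the 10 precursor markers (FPKM, log scale) in each library (points) of the 8 groups, with the group mean as a bar and the floor of 0.1 FPKM as a dotted line. The OPC libraries lie above all other purified libraries for Pdgfra, C1ql1, Lhfpl3, Cspg4, Emid1, Pcdh15 and Xylt1, while Ptprz1 is highest in astrocytes.

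Markers of other cells were read in the same way before any other comparison, since their RNA was present in the OPC libraries. The 12 microglia markers summed to 846 and 433 FPKM in OPC replicates 1 and 2, against 14.7 to 126 FPKM in the other purified libraries outside microglia. Of the 12, 11 were called higher than the mean, beside 16.3% of all genes tested. Csf1r, the receptor on which microglia depend, was at 137 and 69.7 FPKM in OPC, against 2502 and 3462 in microglia. P2ry12, a purine receptor of microglia, was at 103 and 32.2 FPKM, against 375 and 286 in microglia. The median microglia marker reached 6.02% and 3.43% of its microglia level. Astrocyte markers summed to 1103 and 584 FPKM against 88 to 353 elsewhere outside astrocytes, and their median member reached 9.63% and 5.48% of the astrocyte level. Neuron markers summed to 184 and 182 FPKM against 31.7 to 122 elsewhere outside neurons, with a median of 14% and 13% of the neuron level, and interneuron markers to 44.6 and 50.9 FPKM against 4.50 to 19.9, with a median of 1.39% and 1.20% of the neuron level. Endothelial markers stood at a median of 0.440% and 0.161% of the endothelial level and summed to 50.6 and 45.8 FPKM, within the 37 to 114 FPKM of the other libraries outside endothelial cells.

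Markers of cells that were not purified here also stood out. Of 8 fibroblast markers, 7 were higher than the mean and 6 higher than in each other type, beside 16.3% and 1.49% of all genes tested. Their sum was 134 and 215 FPKM in OPC against 1 to 27.4 FPKM in the other purified libraries. Dcn, a small matrix proteoglycan of connective tissue, was at 24.2 and 34.8 FPKM in OPC and 0.1 to 1.61 FPKM (median 0.424) in the other 12 libraries. Col1a2, a chain of fibrillar collagen, was at 21.7 and 46.6 FPKM and Slc6a13, a transporter of the meninges, at 7.33 and 15 FPKM. Mural cell markers did not stand apart, at 44.7 and 56.7 FPKM, except for Vtn, the adhesion protein vitronectin, at 25.3 and 48 FPKM in OPC, against 99.5 and 165 in endothelial cells. Erythroid transcripts differed widely between the OPC libraries, with a sum of 15053.7 FPKM in replicate 1 and 1032 FPKM in replicate 2, and ran from 10.4 to 8638 FPKM in the other purified libraries. Beta-s, a globin whose counting against its near-identical paralogs is uncertain, alone took 5.54% of the sum of replicate 1. The 3 erythroid markers tested were called, and none were without OPC replicate 1. The part of RNA from these other cells in the results that follow was not tested.

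The OPC libraries correlated at r = 0.977 across genes, which are not independent replicates, below the 0.983 to 0.998 of the other groups. Of all 22462 genes, tested or not, 32 were 4-fold apart between the OPC libraries on the log2(FPKM + 1) scale, 28 of these higher in replicate 1. They held, besides the erythroid genes, RNA-processing genes such as Cwc22, at 116 and 20.9 FPKM, and Luc7l3, at 53.9 and 9.72 FPKM. The chemokine Ccl3 was at 80.2 and 13.7 FPKM. Counts without each OPC library are given with the results where they change a statement.

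Against the mean of the 6 other types, 2282 of 14011 genes were higher in OPC and 322 were lower, which is 16.3% and 2.30% of genes tested, and 18.6% together. The median log2 difference over all genes was 0.34, and every difference is to be read beside it. With median-of-ratios scaling, which brings that median to 0.06, the counts were 1508 higher and 541 lower, and 73.6% of calls were then higher in OPC, against 87.6%. Scaling every library to the same FPKM total gave 2766 and 252. The higher genes had a median OPC level of 13.8 FPKM and the lower ones of 1.36 FPKM.

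Most of the higher genes were shared with some other type. Of the 2282, OPC exceeded 5 types by a log2 difference of 1 or more for 713 genes, 4 types for 778 and all 6 for 218. The highest of the other types was neurons for 813 genes, astrocytes for 598, newly formed oligodendrocytes for 395, endothelial cells for 240, microglia for 181 and myelinating oligodendrocytes for 55. For 524 of the 2282 genes another type was itself higher than OPC by 1 or more. Both OPC libraries lay above all 12 others for 670 of them, and for 6.84% of all genes tested. The type that OPC exceeded least often was neurons, by 1 or more for 1105 genes, and most often myelinating oligodendrocytes, for 2015. These counts use the levels as deposited. Mbp alone took 34.8% and 25.1% of the FPKM sum of the myelinating libraries. Median-of-ratios scaling would divide these libraries by 0.667 and 0.746, and the OPC libraries by 1.14 and 1.29. Whether the order of types, here or in the counts by type below, changes with scaling was not tested.

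**Figure D2:**
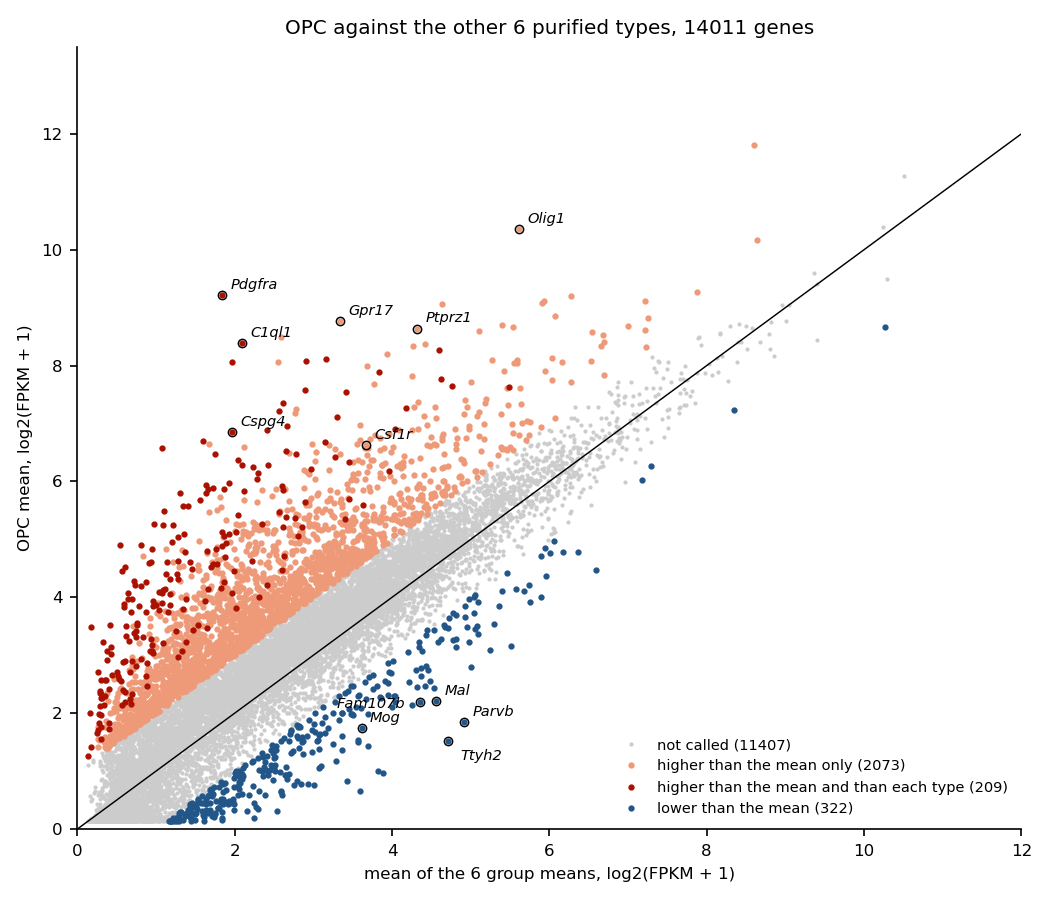
Mean of the OPC libraries against the mean of the 6 group means, both as log2(FPKM + 1), for the 14011 genes tested, with the line of equality. Genes higher than the mean (light red, 2073) or also higher than in each type (dark red, 209) lie above the line and the 322 lower genes (blue) below it, most of them at low OPC levels.

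A stricter question is which genes were higher in OPC than in each of the 6 types. These were 209, or 1.49% of genes tested, with OPC means from 1.40 to 595 FPKM and a median of 17.6 FPKM. For 105 of them the next type was newly formed oligodendrocytes, for 54 neurons, for 33 astrocytes, for 13 endothelial cells, for 3 myelinating oligodendrocytes and for 1 microglia. The median gene of the 209 stood in newly formed oligodendrocytes at 22.8% of its OPC level, in neurons at 13.6%, in astrocytes at 5.60% and in the remaining types at 1.99% to 2.48%. Median-of-ratios scaling left a count of 134, and a threshold of 2 in place of 1 left 33.

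Besides the markers above, the genes of this group with the largest differences from the mean were led by Fam70b, at 74.4 and 121 FPKM in OPC and 0.1 to 19.7 FPKM (median 0.225) in the other 12 libraries (log2 difference 5.51, SE 0.17, limma adjusted p = 2.18e-11). Nxph1, a secreted ligand of neurexins, was at 102 and 103 FPKM against 0.1 to 23.5 FPKM (median 0.345) elsewhere. Its OPC libraries were nearly equal and more than 4 times any other library. Sstr1, a receptor for somatostatin, was at 55 and 54 FPKM against 0.1 to 10.8 FPKM (median 0.205) elsewhere. Cdo1, the cysteine dioxygenase of taurine synthesis, was at 159 and 228 FPKM, against 26.2 and 34.8 in astrocytes. Rlbp1, a retinaldehyde-binding protein best known from the retina, was at 115 and 190.4 FPKM, against 27.6 and 44.3 in astrocytes. For both the next type was astrocytes rather than the oligodendrocyte lineage.

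The group also held the following genes. Megf11, a receptor with EGF repeats, was at 40.8 and 47.6 FPKM, against 10.4 and 13.1 in newly formed oligodendrocytes. Ppapdc1a, a lipid phosphatase, was at 70.3 and 110.1 FPKM, against 15.2 and 20.6 in newly formed oligodendrocytes. Olfm2, a secreted olfactomedin, was at 132 and 199 FPKM, against 56.5 and 43.8 in neurons, and its call against each type was lost under several of the alternatives tried. Cntn1, an adhesion molecule of axon and glia contacts, was at 337 and 226 FPKM, against 167 and 95.7 in newly formed oligodendrocytes, with a log2 difference of 1.12 from the latter that fell under the threshold with median-of-ratios scaling, at 0.91, without OPC replicate 1, at 0.83, and without newly formed replicate 2, at 0.72. Some genes with large differences from the mean were shared with the newly formed stage and were not higher than in each type. Matn4, a matrilin of the matrix, was at 304 and 426 FPKM, against 124 and 200.4 in newly formed oligodendrocytes. Neu4, a sialidase, was at 91.8 and 107 FPKM, against 79.2 and 105 in newly formed oligodendrocytes. Gpr17, a receptor of premyelinating cells, was at 396 and 479.8 FPKM, against 837 and 1012 in newly formed oligodendrocytes.

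Over all genes tested, 16.3% were higher than the mean, 2.30% lower and 1.49% higher than in each type. The counts of each gene list below are to be read beside these shares. Receptors for growth factors and chemokines were called in both directions, 13 of 30 higher than the mean and 2 lower, with a median difference of 0.62. Pdgfra was the only member higher than in each type. Ednrb, the endothelin receptor B, was at 304 and 283 FPKM in OPC, against 348 and 318 in astrocytes. Ntrk2, the receptor for brain-derived neurotrophic factor, was at 124 and 112 FPKM, against 174 and 190.2 in astrocytes, and Ntrk3, that for neurotrophin 3, at 39.5 and 31.3 FPKM, against 97.5 and 81.5 in astrocytes. All of these were called higher than the mean, and for each another type was higher still. Cxcr7, a scavenger receptor for the chemokine Cxcl12, was at 23.8 and 31.5 FPKM, against 37.6 and 39.2 in endothelial cells. Erbb3, a neuregulin receptor, was shared within the lineage, at 13.4 and 13 FPKM in OPC, against 29.7 and 16.5 in newly formed oligodendrocytes, and was listed at 0.1 in all libraries of the other 4 types (log2 difference 2.22, SE 0.15, limma adjusted p = 3.78e-08). Fgfr2, a fibroblast growth factor receptor, was lower in OPC, at 3.18 and 1.87 FPKM, against 51.4 and 49.1 in astrocytes. Lpar1, a receptor for lysophosphatidic acid, was lower too, at 2.76 and 2.15 FPKM, against 155 and 118 in myelinating oligodendrocytes. Both calls were lost with libraries brought to a common sum.

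Genes that relay or restrain receptor tyrosine kinase signals gave 12 of 16 higher than the mean, none lower and a median of 1.78. Shc4, an adaptor of these receptors, was at 30.6 and 27.6 FPKM in OPC and 0.1 to 6.75 FPKM (median 0.338) in the other 12 libraries, with no overlap (log2 difference 4.10, SE 0.10, limma adjusted p = 7.66e-12). Sulf1, an extracellular sulfatase that trims heparan sulfate, was at 7.04 and 7.91 FPKM, against 1.38 and 1.06 in newly formed oligodendrocytes, and was higher than in each type. Its relative Sulf2 was at 208 and 313 FPKM, against 159 and 234 in newly formed oligodendrocytes. Etv4, a transcription factor induced by such signals, was at 42.6 and 65.3 FPKM, against 79.9 and 80.5 in astrocytes, and Spry4, a feedback inhibitor, at 19.6 and 17.8 FPKM, against 20.2 and 24.3 in astrocytes.

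Among 35 transcription factors of the lineage, 20 were higher than the mean and 2 lower, with a median of 1.40. Olig1, a factor of the lineage, was at 1072 and 1588 FPKM in OPC, 662 and 754 in newly formed and 519 and 455 in myelinating oligodendrocytes. Olig2, which specifies the lineage, was at 186 and 227 FPKM, 117 and 118 and 64.7 and 51 in the same order. Both OPC libraries were above all 12 others for each gene, but the differences from the newly formed stage were under 1 on the log2 scale. Sox10, needed from the precursor to the mature stage, was about level in the lineage, at 127 and 163 FPKM in OPC, 132 and 129.8 in newly formed and 112 and 92.4 in myelinating oligodendrocytes. Sox6, which holds back differentiation, was at 33.2 and 30.7 FPKM in OPC, 19.9 and 20.6 in newly formed and 0.311 and 0.764 in myelinating oligodendrocytes. Sox3, of the SoxB1 group, was at 14.4 and 24.8 FPKM, against 4 and 7.66 in newly formed oligodendrocytes. It was higher than in each type (log2 difference from the mean 3.14). Hes5, a target of Notch, was at 69.6 and 74.5 FPKM against 297 and 281 in astrocytes. Nkx6-2, of the mature lineage, was lower, at 0.128 and 0.1 FPKM, against 58.8 and 47.5 in myelinating oligodendrocytes. St18, a zinc finger factor, was lower as well, at 0.1 in both OPC libraries, against 13.6 and 5.39 in newly formed oligodendrocytes.

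Among chondroitin sulfate proteoglycans and their matrix partners, 13 of 19 were higher than the mean, 2 lower and a median of 2.19. Cspg5, neuroglycan C, was at 435 and 660.2 FPKM, against 314 and 279.6 in astrocytes. Bcan, brevican, was at 479.7 and 613 FPKM, against 876 and 734 in astrocytes. Smoc1, a calcium-binding matrix protein, was at 41.6 and 60.3 FPKM against 0.1 to 12.8 FPKM (median 1.24) in the other 12 libraries. Acan, aggrecan, was at a lower level, at 6.10 and 8.30 FPKM against 0.1 to 2.01 FPKM (median 0.1). Both were higher than in each type. Tnc, tenascin C, was lower, at 0.292 and 0.398 FPKM, against 90.9 and 144 in astrocytes. Hapln2, a link protein of nodes of Ranvier, was lower as well, at 0.1 and 0.1 FPKM in OPC, against 37.9 and 46.2 in myelinating oligodendrocytes.

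Heparan sulfate proteoglycans were called higher for 6 of 13, with a median of 0.86. The enzymes that build both kinds of chain were called higher for 10 of 30, with 1 lower and a median of 0.71. Of all genes tested, 16.3% were higher and 2.30% lower. Sdc3, a syndecan, was at 232 and 408 FPKM, against 103 and 73.4 in neurons, and was the proteoglycan of this kind that was higher than in each type. Gpc5, a glypican, was at 55.7 and 44.8 FPKM, against 45.4 and 32.1 in astrocytes. Chst11, which sulfates chondroitin, was at 79.5 and 90.3 FPKM in OPC against 0.353 to 27 FPKM (median 12.7) elsewhere, with no overlap. Of 24 proteases and inhibitors, 11 were higher than the mean and 1, Adamts4, was lower. Mmp15, a membrane-bound metalloproteinase, was at 181 and 311 FPKM in OPC and 2.02 to 35.9 FPKM (median 19.1) in the other 12 libraries (log2 difference 4.06, SE 0.17, limma adjusted p = 2.21e-10). Mmp16, a relative, was at 34.9 and 20.1 FPKM, against 10.1 and 7.80 in neurons. Adam12, another membrane metalloproteinase, was at 18.5 and 14.9 FPKM, against 6.72 and 5.11 in newly formed oligodendrocytes, and both were higher than in each type. Serpine2, an inhibitor of serine proteases, was at 423 and 505 FPKM, against 239 and 234 in astrocytes.

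Genes for synaptic input made up several of the lists with the most calls. Of 27 ionotropic glutamate receptor subunits and auxiliary proteins tested, 22 were higher than the mean, none lower, and the median was 1.99. Cacng4, which escorts AMPA receptors, was at 239.7 and 304 FPKM in OPC and 0.108 to 86 FPKM (median 7.61) in the other 12 libraries (log2 difference 5.18, SE 0.16, limma adjusted p = 2.42e-11). Both OPC libraries were above every other library. Gria3, an AMPA receptor subunit, was at 83.5 and 25.8 FPKM in OPC, against 20.1 and 7.13 in newly formed oligodendrocytes and 3.73 and 5.31 in neurons, and was higher than in each type. Gria2, the subunit that limits calcium entry, was at 163 and 55.2 FPKM, against 179.7 and 155 in astrocytes. For both, OPC replicate 1 was well above replicate 2. Grin3a, an NMDA receptor subunit, was at 23.1 and 23.7 FPKM, against 7.35 and 6.23 in neurons. Grik4, a kainate receptor subunit, was at 15.7 and 22.5 FPKM, against 6.54 and 7.61 in newly formed oligodendrocytes. Both were higher than in each type.

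Of 14 GABA receptor subunits, 9 were higher than the mean and none lower, beside 16.3% and 2.30% of all genes tested, with a median of 1.12. Gabra3 was at 24.1 and 23.4 FPKM in OPC against 8.73 and 11.4 in neurons, and was the member higher than in each type. Voltage-gated and leak channels gave 25 of 40 higher and none lower, with a median of 1.55. Kcnip3, an auxiliary subunit of A-type potassium channels, was at 104 and 146 FPKM, against 0.205 to 41 FPKM (median 3.98) in the other 12 libraries. Kcnd2, a pore subunit of these channels, was at 30.8 and 23.2 FPKM, against 12.5 and 10.2 in neurons. Kcnk1, a leak channel, was at 19.5 and 28.1 FPKM, against 3.73 and 4.70 in newly formed oligodendrocytes. Kcnip3, Kcnd2 and Kcnk1 were higher than in each type. Scn3a, a sodium channel, was at 15.8 and 6.76 FPKM and overlapped neurons, at 6.57 and 10.7 FPKM.

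Synaptic adhesion molecules had the largest number of members higher than in each type among the gene lists, 13 of 46, beside 1.49% of all genes tested. The share was larger for precursor markers, 7 of 10, and fibroblast markers, 6 of 8. Of the 46 adhesion molecules 33 were higher than the mean, 2 lower, and the median was 2.51. C1ql3, a relative of C1ql1, was at 64 and 46.8 FPKM against 0.115 to 20.7 FPKM (median 1.75) elsewhere. Lrrtm3, a postsynaptic ligand of neurexins, was at 28.5 and 18.8 FPKM, against 0.1 to 7.94 FPKM (median 0.220). Slitrk1, another postsynaptic leucine-rich protein, was at 24.3 and 22.6 FPKM, against 7.03 and 3.66 in neurons. Dscam, an adhesion molecule of neurites, was at 42.7 and 44.3 FPKM, against 23.6 and 31.2 in newly formed oligodendrocytes, and was not higher than in each type. Cntnap2, of the axon membrane near nodes of Ranvier, was lower than the mean, at 0.488 and 0.647 FPKM, against 27.5 and 48.4 in neurons. Its partner Cntn2 was lower too, at 0.876 and 1.31 FPKM, against 66.3 and 53 in myelinating oligodendrocytes. Of 24 synaptic vesicle genes 10 were higher than the mean, none of these than each type, and the median was 0.67. Syt11, a synaptotagmin, was at 152 and 168 FPKM, against 386 and 280.3 in newly formed oligodendrocytes. Syp, synaptophysin, was at 31.3 and 47.7 FPKM, against 274 and 229 in neurons. Of the 12 neuron markers, which stood at a median of 14% and 13% of the neuron level in OPC, 6 were called higher and 1 lower. Of the 12 interneuron markers, at a median of 1.39% and 1.20%, 3 were higher and none lower, and their median difference was -0.55. The part of neuron RNA in the receptor, channel and synapse lists was not tested.

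Most cell cycle genes were higher in OPC than the mean of the other types, though division itself was not measured. Of 40 such genes, 30 were higher than the mean and none lower, beside 16.3% and 2.30% of all genes tested. Only 2 were higher than in each type. All 40 differences were above 0, and the median was 1.38. Mcm6, a subunit of the replicative helicase, was at 19.7 and 28.6 FPKM in OPC and 0.300 to 8.98 FPKM (median 4.03) in the other 12 libraries, and was higher than in each type. Rrm2, of ribonucleotide reductase, was at 11.3 and 15.2 FPKM, against 4.83 and 6.73 in astrocytes. Ube2c, which acts in mitotic exit, was at 17.8 and 16.9 FPKM, against 8.82 and 12.3 in endothelial cells. For Mcm6, Rrm2 and Ube2c both OPC libraries stood above all others. Ccnd1, cyclin D1, was at 60.9 and 79.4 FPKM in OPC and as high in endothelial cells, at 71.8 and 74. Mki67, the Ki-67 protein of cycling cells, was at 7.72 and 1.88 FPKM, against 3.68 and 5.65 in astrocytes (log2 difference from the mean 1.34), and the OPC libraries lay on either side of astrocytes. Of 12 inhibitors of the cycle, Gas1, Cdkn2c and Rbl1 were higher and Cdkn1a was lower. Cdkn1a, which arrests the cycle after stress, was at 4.72 and 6.41 FPKM, 119 and 98.6 in microglia and 149 and 143 in endothelial cells. The median of the inhibitors was 0.34, and -0.01 with median-of-ratios scaling, where Rbl1 was no longer called at 0.99.

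Of 26 secreted growth factors, 9 were higher than the mean and none lower, beside 16.3% and 2.30% of all genes tested. At 2.30%, few of 26 genes would be lower in any case. Mdk, the heparin-binding factor midkine, was at 53.7 and 79.1 FPKM, against 32.3 and 40.6 in astrocytes. Bmp7, a bone morphogenetic protein, was at 28.4 and 34.1 FPKM, against 23.2 and 20.5 in astrocytes. Bmp4 was at 11.4 and 9.64 FPKM in OPC and higher in newly formed oligodendrocytes, at 40.5 and 33.7. Igf2, which is also on the fibroblast list, was at 43.5 and 48.7 FPKM against 0.243 to 19.5 FPKM (median 1.96) in the other 12 libraries. In the Notch, Wnt and BMP pathways 12 of 34 genes were higher and 3 lower. Dll3, a Delta-like Notch ligand, was at 23.9 and 31.9 FPKM, against 4.12 and 6.29 in newly formed oligodendrocytes, and Dll1, another, at 28.1 and 27.3 FPKM, against 8.06 and 10.2 in newly formed oligodendrocytes. Both were higher than in each type. Dner, another Notch ligand, was at 95.3 and 103 FPKM in OPC and close to it in neurons, at 90.0 and 83.6 FPKM. Id1, a target of BMP signals, was lower at 3.16 and 2.86 FPKM, with 53 and 84.5 in astrocytes and 55.4 and 58 in endothelial cells.

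Axon guidance genes were called in both directions, 16 of 42 higher and 3 lower, beside 16.3% and 2.30% of all genes tested, with a median of 0.55. Ntn1, netrin 1, was at 27.1 and 42.2 FPKM in OPC and 0.1 to 12 FPKM (median 2.29) elsewhere and was the member higher than in each type. Sema3d, a secreted semaphorin, was at 34.9 and 15.8 FPKM, against 38.5 and 14.3 in newly formed oligodendrocytes. Sema5a, a membrane-bound one, was at 33.1 and 24.3 FPKM, against 78.4 and 51.4 in newly formed oligodendrocytes. Unc5b, a netrin receptor, was among the genes lowest in OPC, at 0.595 and 0.577 FPKM, with 56.2 and 50.6 in myelinating oligodendrocytes and 36.6 and 34.5 in endothelial cells (log2 difference -2.93, SE 0.15, limma adjusted p = 2.22e-09). Microglia and astrocytes were as low, at means of 0.349 and 0.717 FPKM. Sema4d, another membrane semaphorin, was also lower, at 9.08 and 8.38 FPKM in OPC and at 213 and 250.4 in newly formed oligodendrocytes.

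Most markers of the mature stage, and 1 of those of the newly formed stage, were lower in OPC than the mean. Of 12 markers of myelinating oligodendrocytes, 9 were lower than the mean of the other types, beside the 2.30% of all genes that were, and 2, Apod and Gjb1, were higher. Mog, a surface protein of myelin, was at 2.74 and 1.97 FPKM in OPC, 550.2 and 467 in newly formed and 1791 and 1632 in myelinating oligodendrocytes. Mag, an adhesion protein of the inner myelin layer, was at 5.16 and 4.57 FPKM in OPC, 1687 and 1742 in newly formed and 2110.3 and 1881 in myelinating oligodendrocytes. Both genes were far below either later stage. The median marker of myelinating cells reached 0.454% and 0.422% of its own level in OPC, that of newly formed cells 23.4% and 22.9%. Among 12 markers of newly formed cells 5 were higher than the mean, and only Enpp6, a choline phosphodiesterase, was lower, at 0.451 and 0.707 FPKM against 214 and 151. Bcas1 was at 90.7 and 97.9 FPKM in OPC and 456 and 602 at the newly formed stage.

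The 23 genes of myelin proteins and lipids split, with 6 higher and 9 lower than the mean and a median of -0.56. Pllp, the membrane protein plasmolipin, was at 264 and 413 FPKM in OPC, so that the lower library was below both later stages, with newly formed oligodendrocytes at 381 and 553 and myelinating ones at 385 and 409. Ugt8a, which makes the galactolipids of myelin, was at 71.8 and 52.3 FPKM, above the mean of the types but below 775 and 362 in newly formed and 539 and 644 in myelinating oligodendrocytes. Mbp, myelin basic protein, was not called: it was at 249.6 and 285 FPKM in OPC, against 114159 and 74692 in myelinating oligodendrocytes, and 2.45 and 0.951 in astrocytes (log2 difference 0.67, SE 0.25, limma adjusted p = 0.0359). Mal, a proteolipid of myelin, was at 4.83 and 2.68 FPKM in OPC against 2666 and 2456 in myelinating oligodendrocytes (log2 difference -2.35, SE 0.23, limma adjusted p = 1.14e-06). Gamt, a creatine synthesis enzyme, was at 3.48 and 5.53 FPKM, against 289.5 and 235 in myelinating oligodendrocytes. Opalin, a membrane protein of oligodendrocytes, was at 0.446 and 0.547 FPKM, against 297 and 237 in myelinating oligodendrocytes. Of 20 genes of cholesterol synthesis, which myelin membrane needs, limma called 0 in either direction, and the median was -0.18. The lowest difference there was that of Mvd, an enzyme of the mevalonate pathway, at 13 and 22 FPKM (log2 difference -0.90, SE 0.17, limma adjusted p = 3.84e-04). With median-of-ratios scaling 4 of the 20 were lower.

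Seen over all genes, the 322 lower genes were not a single class. OPC were below endothelial cells by 1 or more for 219 of them, below myelinating oligodendrocytes for 179, newly formed oligodendrocytes for 168, microglia for 149, neurons for 105 and astrocytes for 104. Only 4 were below all 6 types by that much, and both OPC libraries lay below all 12 others for 27, and for 0.271% of all genes tested. Ttyh2, a membrane protein of the tweety family, had the lowest difference, at 2 and 1.74 FPKM in OPC and 1.51 to 108 FPKM (median 42.3) in the other 12 libraries (log2 difference -3.19, SE 0.14, limma adjusted p = 3.09e-10). Neurons were as low, at 1.93 and 1.51 FPKM. Parvb, the focal adhesion protein beta-parvin, was at 2.45 and 2.74 FPKM, below all 12 others with 3.20 to 215 FPKM (median 50.9). Cdc42ep2, an effector of the GTPase Cdc42, was at 0.765 and 0.773 FPKM, again below all others with 1.60 to 60.4 FPKM (median 9.41).

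The other genes described among the 10 lowest were as low in 1 or more types. Ndrg1, a stress-response gene of the mature lineage, was at 1.01 and 0.886 FPKM in OPC and 286 and 222 in myelinating oligodendrocytes, with astrocytes as low at 0.473 and 1.08. Rgs16, a regulator of G protein signals, was at 0.627 and 1.49 FPKM, against 38.4 and 69.4 in newly formed oligodendrocytes and a mean of 1.32 in microglia. Cd82, a tetraspanin, was at 9.22 and 6.75 FPKM, against 178 and 206 in microglia and 4.68 and 8.03 in astrocytes. Pdlim2, an actin-associated protein, was at 1.54 and 1.89 FPKM, against 238 and 170.2 in myelinating oligodendrocytes and 1.75 and 1.78 in neurons.

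Fam107b was the single gene lower in OPC than in each other type, or 0.00714% of genes tested. It stood at 4.58 and 2.76 FPKM in OPC and 12 to 40.6 FPKM (median 16.9) in the other 12 libraries, so that the groups did not overlap (log2 difference from the mean -2.16, SE 0.17, limma adjusted p = 1.71e-07). The nearest type was neurons, at 12.7 and 15.1 FPKM (log2 difference -1.70, SE 0.23, limma adjusted p = 0.0242). Whole cortex was at 18.8, 14.9 and 16.7 FPKM, as high as the other types. At an unadjusted p under 0.05, 22 genes were lower than each type. The call of Fam107b was lost with no filter, with libraries brought to a common sum and with only purified libraries in the fit. The call was lost as well with the replicate number as a block in the fit and under a log2 threshold of 2. It was also lost when any single one of these libraries was left out: both of astrocytes, neurons and endothelial cells, OPC replicate 2, myelinating replicate 2, microglia replicate 1 and all 3 of whole cortex, with limma adjusted p from 0.0512 to 0.251 for Fam107b against each type.

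**Figure D3:**
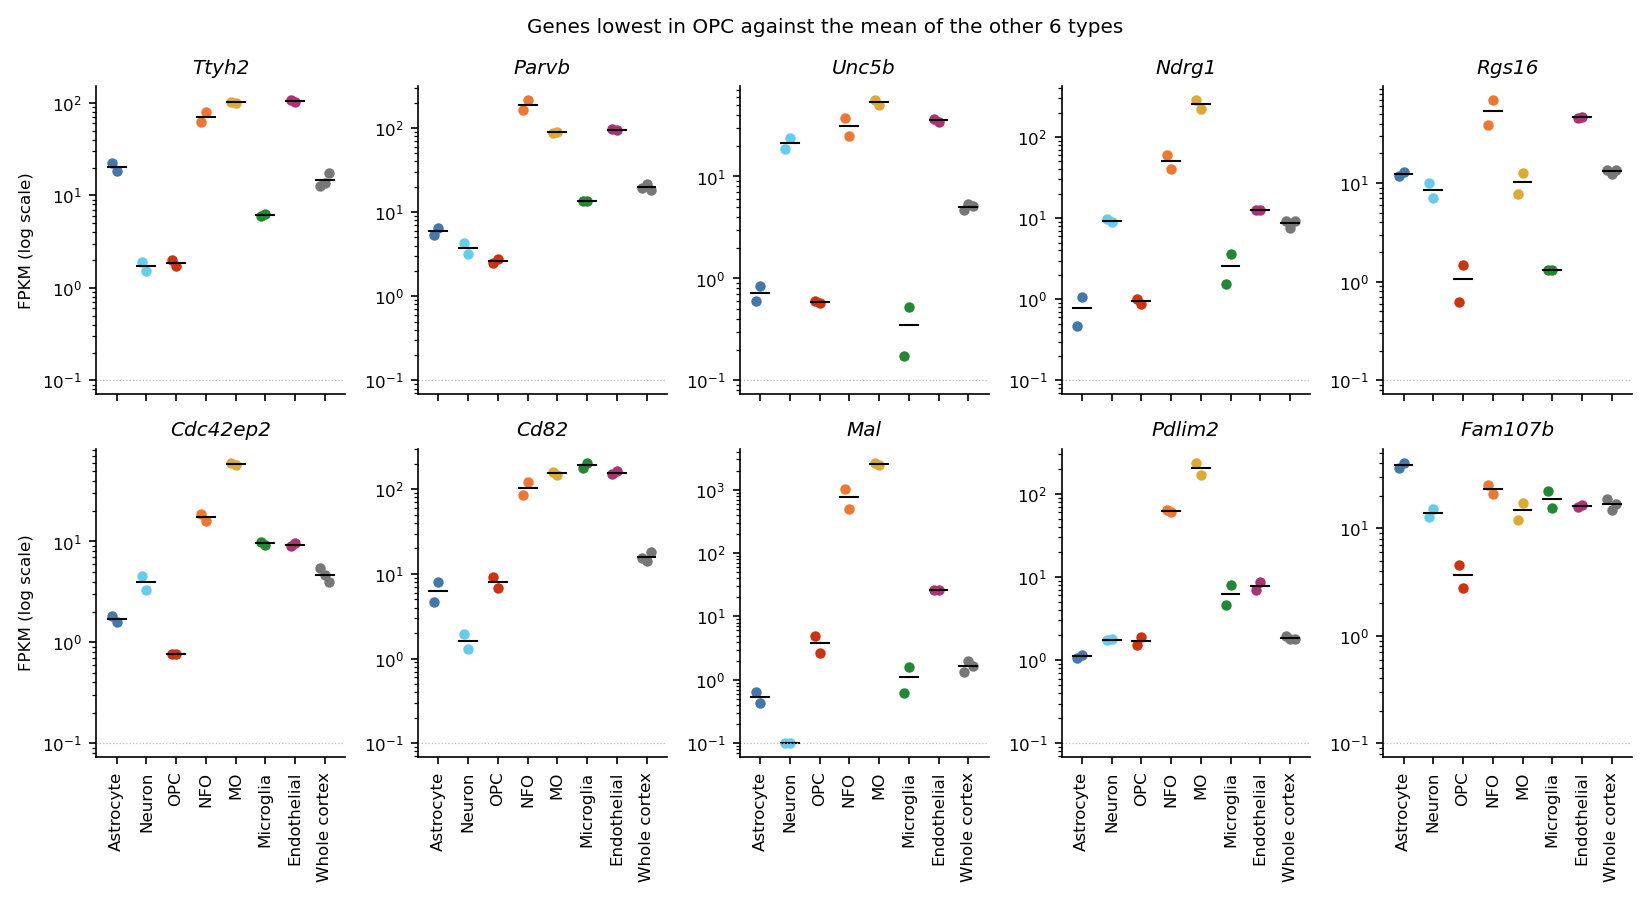
Level (FPKM, log scale) of 9 of the 10 genes with the lowest log2 difference between OPC and the mean of the other types, and of Fam107b, in each library (points) with the group mean as a bar. Parvb, Cdc42ep2 and Fam107b are lower in both OPC libraries than in all 12 other purified libraries, while Ttyh2, Unc5b, Ndrg1, Rgs16, Cd82, Mal and Pdlim2 are as low in 1 or more other types.

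Barrier and immune genes were called in both directions. Of 19 barrier genes 5 were higher and 5 lower, beside 16.3% and 2.30% of all genes, and 3 were higher and 6 lower with median-of-ratios scaling. Mfsd2a, a lipid transporter of brain vessels, was at 179.8 and 246 FPKM in OPC, 116 and 179.7 in newly formed oligodendrocytes and 441 and 435 in endothelial cells. Cldn5, of tight junctions, was at 4.06 and 3.53 FPKM against 3237 and 3552 in endothelial cells. The call of Cldn5 was lost without OPC replicate 2, where 3 of 12 endothelial markers were lower in place of 9. Of 19 antigen presentation and complement genes 7 were higher and 1 lower, and of 22 innate immune genes 6 were higher. All 6 of the latter, Tyrobp, Fcer1g, Fcgr3, Trem2, Tlr7 and Cd14, had their highest mean in microglia. The part of microglia RNA in these calls was not tested. Ctss, a lysosomal protease of microglia, was at 192 and 80.2 FPKM in OPC and 1758 and 1443 in microglia. Of 16 immediate-early and stress genes, which respond to cell handling, 1 was called. Dusp1, a phosphatase of stress signalling, was lower than the mean at 75.9 and 54.2 FPKM, a call lost with libraries brought to a common sum, at -0.98, and without OPC replicate 2, at -0.91. With median-of-ratios scaling 6 of the 16 were lower.

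**Figure D4:**
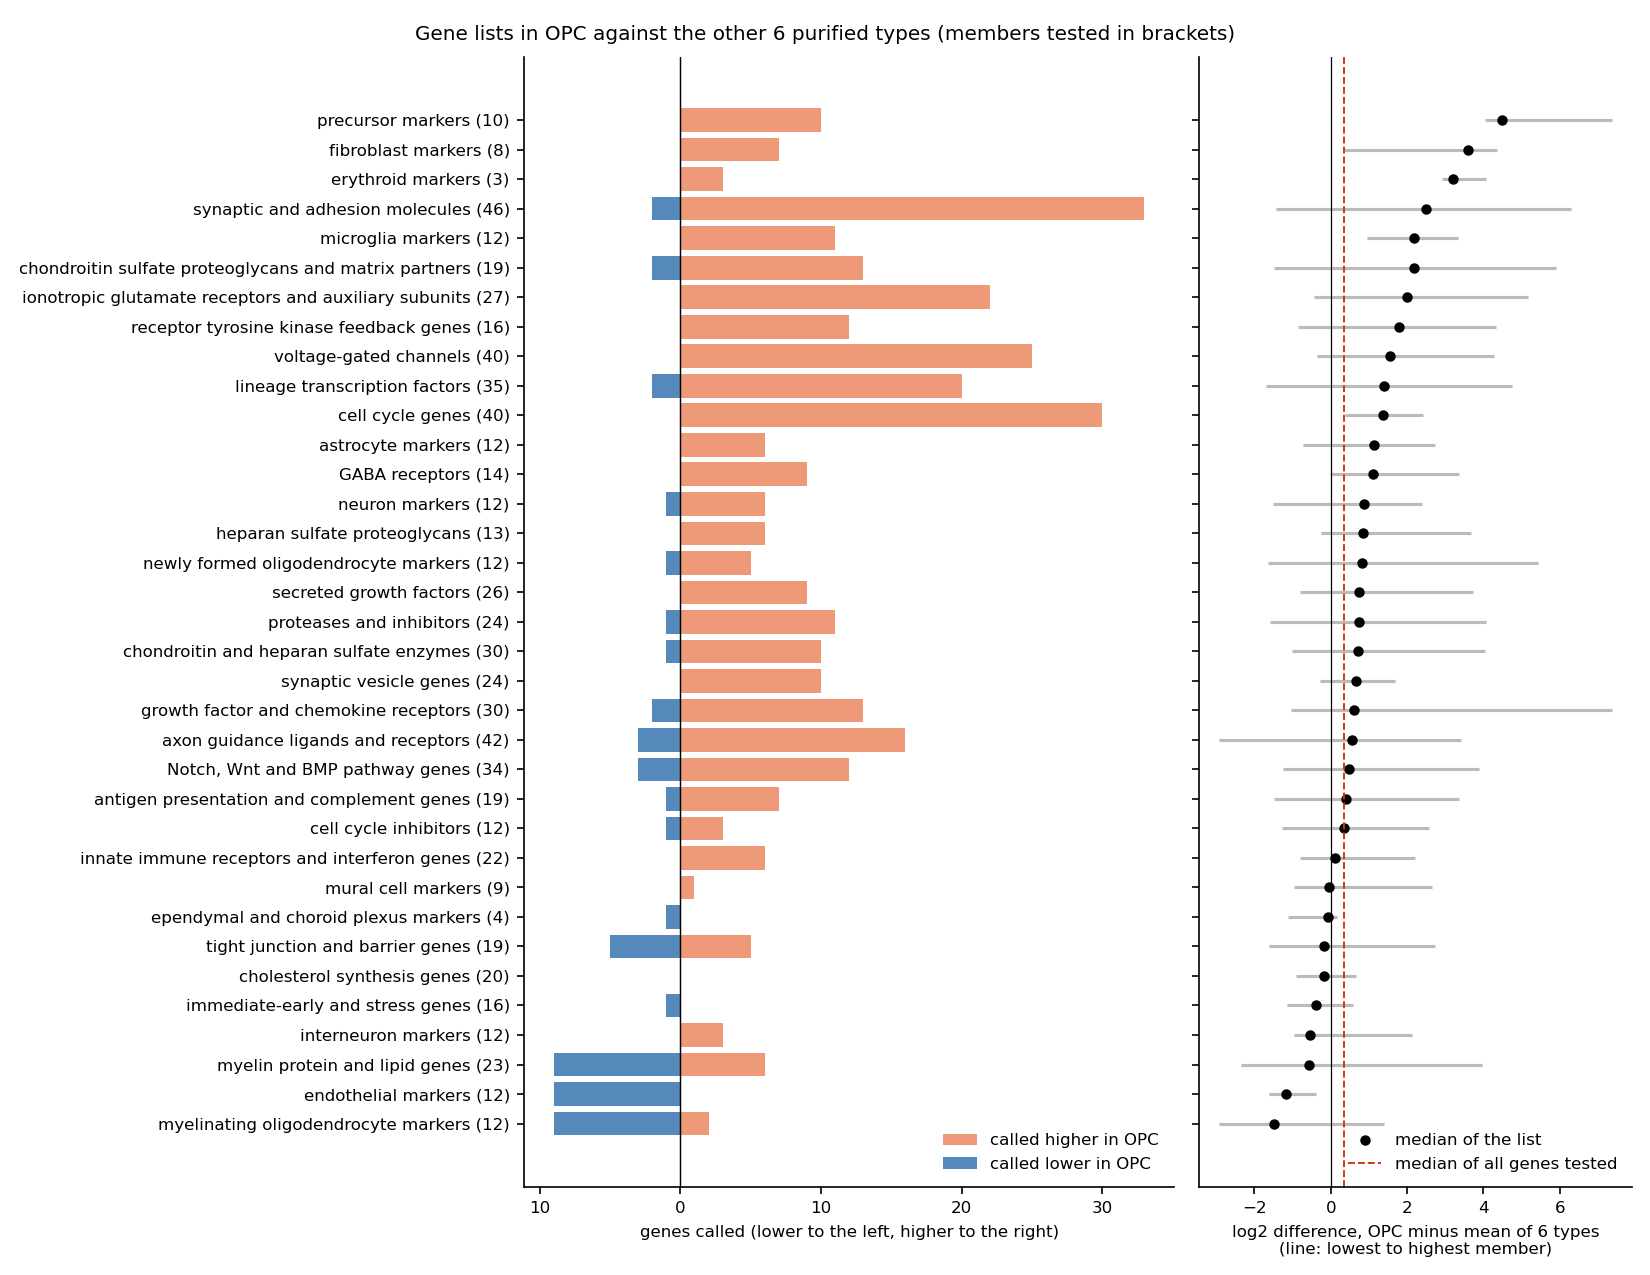
Left, the number of members of each gene list called higher (to the right) or lower (to the left) in OPC than the mean of the other 6 types, with the number of members tested in brackets. Right, the median log2 difference of each list (point) and its range (line), beside the median of all genes tested at 0.34 (dashed); precursor markers lie highest and markers of myelinating oligodendrocytes lowest.

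Isoform use was compared as the share of a gene's FPKM that each RefSeq isoform takes. Of 518 genes with at least 5 FPKM in every purified library, 19 had a share that differed by at least 20 percentage points between OPC and the mean of the other types, or 3.67% of genes tested, where 86 passed the adjusted p alone (limma diffSplice). For 17 of the 19 the isoform pair matched separate GENCODE vM21 transcripts, and for 13 of these the coding sequences differed. The stretches that separate the isoforms are shown for 5 genes whose share in OPC was close to some types and far from others, because they name the piece of protein that is gained or lost. Capitals mark the stretch that the isoform named holds and the other of its pair lacks, and lower case up to 15 neighbouring coding bases, on the mRNA strand, from GRCm38 and GENCODE vM21, not the build of the deposited values.
Add1 NM_013457, chr5:34629136-34629170, plus strand: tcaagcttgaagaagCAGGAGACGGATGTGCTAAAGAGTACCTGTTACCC
Aplp2 NM_001102456, chr9:31156190-31156225, minus strand: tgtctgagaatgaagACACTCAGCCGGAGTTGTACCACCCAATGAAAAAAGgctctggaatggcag
Mapk8ip3 NM_001163449, chr17:24920472-24920495, minus strand: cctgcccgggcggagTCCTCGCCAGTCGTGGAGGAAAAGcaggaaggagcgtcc
Exoc7 NM_016857, chr11:116293275-116293313, minus strand: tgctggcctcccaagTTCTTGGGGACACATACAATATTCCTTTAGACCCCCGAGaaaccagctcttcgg
Exoc7 NM_016857, chr11:116297571-116297663, minus strand: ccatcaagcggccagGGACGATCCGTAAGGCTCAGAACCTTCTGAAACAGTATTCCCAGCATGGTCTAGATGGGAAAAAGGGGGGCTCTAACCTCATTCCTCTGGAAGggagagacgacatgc
Scarb1 NM_016741, chr5:125281108-125281233, minus strand: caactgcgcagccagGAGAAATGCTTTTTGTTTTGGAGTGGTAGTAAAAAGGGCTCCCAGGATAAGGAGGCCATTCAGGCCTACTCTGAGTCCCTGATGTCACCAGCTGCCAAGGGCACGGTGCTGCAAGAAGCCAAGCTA
The stretches of Aplp2, Mapk8ip3, Exoc7 and Scarb1 are multiples of 3 bases long, and those of Add1 and Scarb1 reach the last coding base of their isoform. For Add1 and Scarb1 the coding sequence of the other isoform ends further on. Its own protein end is not shown.

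Add1, the alpha subunit of adducin that caps and bundles actin at the membrane skeleton, differed widely within the lineage. Isoforms with the stretch of 35 bases took 17% and 16.4% of Add1 RNA in OPC, 87.6% and 85.2% in newly formed and 96.6% and 91.9% in myelinating oligodendrocytes. Neurons were at 76.5% and 71.3%, whereas astrocytes, at 22.1% and 18.7%, endothelial cells, at 8.30% and 7.16%, and microglia, at 3.29% and 4.48%, were on the side of OPC. The isoform without it, NM_001024458, had a mean share of 83.3% in OPC and 52.2% over the other types (difference 31.1 points, limma diffSplice adjusted p = 1.67e-05).

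Mapk8ip3, the scaffold JIP3 that links kinase signals to kinesin transport, had an isoform low in OPC and astrocytes. NM_001163449, with the stretch of 24 bases, took 6.18% and 7.26% in OPC, 46.4% and 44.7% in newly formed and 55.7% and 55.3% in myelinating oligodendrocytes, and 51.9% and 57.2% in neurons. Astrocytes were at 5.15% and 4.35%, endothelial cells at 15.1% and 17%, and microglia at the floor. The difference from the mean of the other types was -22.8 points (limma diffSplice adjusted p = 4.11e-07). Cyth1, an exchange factor for Arf GTPases, had NM_011180 at 79.7% and 88.6% in OPC, 31.2% and 34.1% in newly formed oligodendrocytes, and at the floor in myelinating ones. Astrocytes were at 86.3% and 88.8% of that isoform, which differs from NM_001112699 by 3 coding bases.

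Aplp2, a relative of the amyloid precursor protein, had 3 isoforms tested. NM_009691 was listed at the floor of 0.1 FPKM in both OPC libraries, both astrocyte libraries and neuron replicate 1, where its share is set by the level of the gene and has no order. Newly formed oligodendrocytes were at 35.2% and 28.8% and myelinating ones at 62.1% and 52.8% (difference from the mean -21.3 points, limma diffSplice adjusted p = 1.54e-09). NM_001102456, with the stretch of 36 bases, took 44.6% and 45.4% in OPC, between neurons at 52.5% and 57.3% and newly formed oligodendrocytes at 38.8% and 39.3%.

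For Exoc7, the exocyst subunit Exo70, OPC stood with neurons and oligodendrocytes. NM_016857, with both stretches, took 61.9% and 76% in OPC, 63.2% and 63.2% in newly formed oligodendrocytes and 91.2% and 85.1% in neurons, but 31.8% and 28.9% in astrocytes, 7.78% and 5.74% in microglia and 7.95% and 1.80% in endothelial cells. The difference from the mean, 25.3 points, was not called without OPC replicate 2, at 18.2 points. Scarb1, a receptor for high-density lipoprotein, had NM_016741 at 6.41% and 5.48% in OPC and at 1.10% to 9.91% in the other neural libraries, against 66.2% to 79.5% in microglia and endothelial cells. Rtn4, which encodes the Nogo proteins, had isoforms with a stretch of 57 bases at 77.2% and 68.9% in OPC, 95.8% and 97.6% in neurons and 10.1% to 19.9% in microglia and endothelial cells, a call that was lost without some single libraries.

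**Figure D5:**
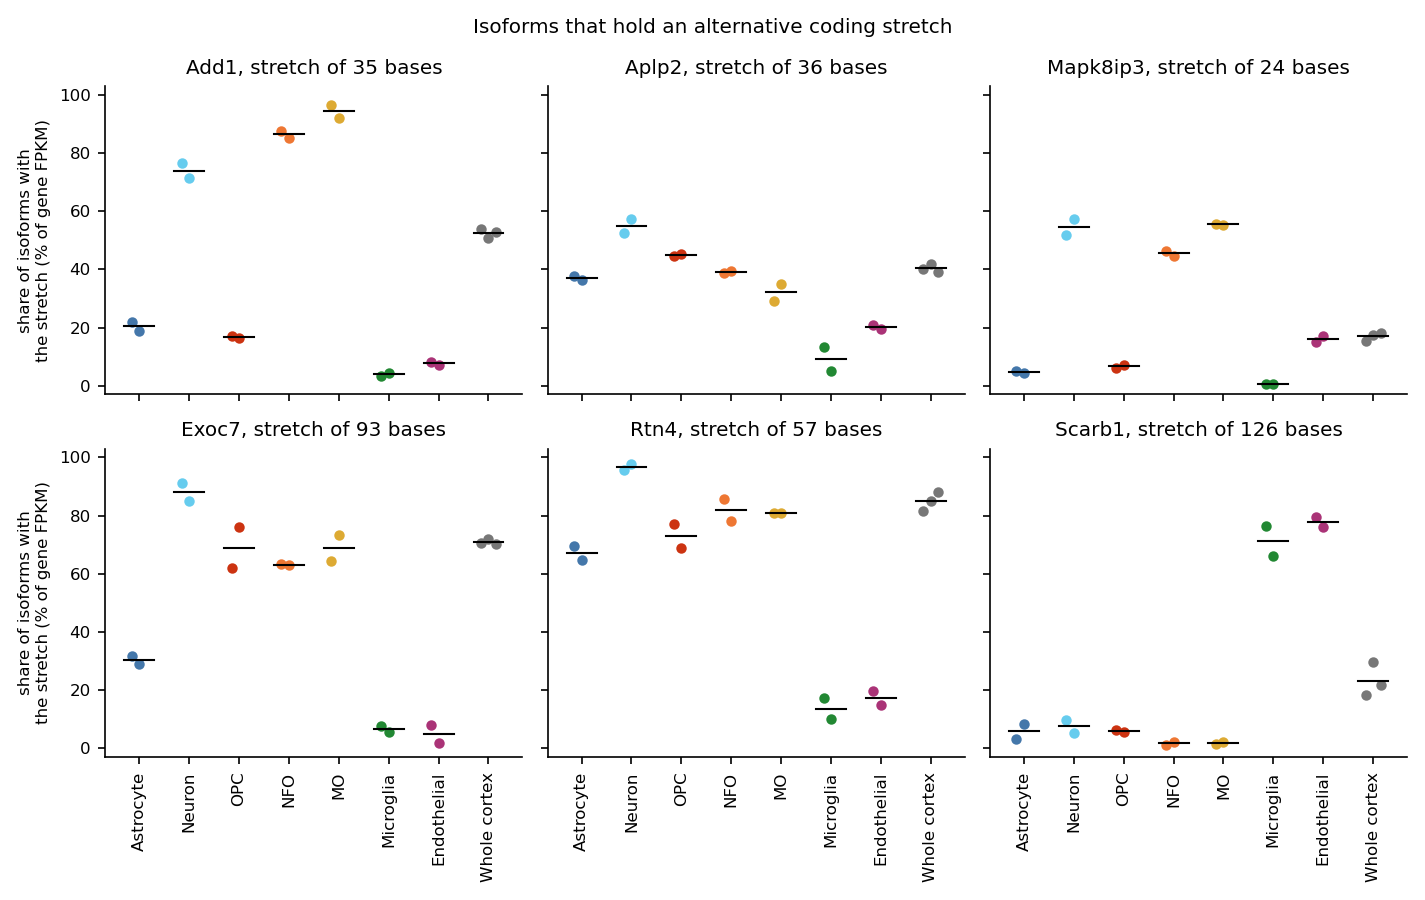
Summed share of the isoforms that hold an alternative coding stretch, in percent of the gene's FPKM, in each library (points) with the group mean as a bar, for 6 of the 19 called genes. For Add1 and Mapk8ip3 the OPC libraries lie near astrocytes and far from newly formed and myelinating oligodendrocytes, for Rtn4 and Scarb1 they lie with the neural types, away from microglia and endothelial cells, and for Exoc7 they lie with neurons and oligodendrocytes and above astrocytes.

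The other called genes included the following. Pde4b, a phosphodiesterase of cyclic AMP, had NM_001177981 at 45.4% and 44.2% in OPC, between neurons at 57.7% and 57.4% and astrocytes at 20.9% and 20.4% (difference from the mean 27.7 points, limma diffSplice adjusted p = 1.54e-09). Wnk1, a kinase of ion transport, had NM_198703 at 48.6% and 56.3% in OPC, 14.2% and 20.3% in newly formed and 1.51% and 3.33% in myelinating oligodendrocytes. Rapgef1, an exchange factor for Rap1, had the short isoform NM_054050 at 26% and 15.4% in OPC and at 82.3% to 87.2% in microglia and endothelial cells, a difference of -22.4 points from the mean that was 17.1 in size and not called without OPC replicate 2. Eif4a1, a helicase of translation initiation, had the largest difference, 44.5 points, with NM_001159375 at 98.9% and 99.6% in OPC, but the myelinating libraries were at 6.28% and 99.6%. The remaining called genes were Abl1, Bscl2, Fbxo6, Jdp2, Luc7l, Maged2, Pnkd and Rusc2, with largest differences of 20.2 to 35 points.

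Across all 518 genes the largest share difference of a gene had a median of 4.71 points between OPC and newly formed oligodendrocytes, 6.39 from astrocytes, 7.24 from myelinating oligodendrocytes, 8.08 from microglia, 8.20 from endothelial cells and 8.46 from neurons. Between the OPC libraries themselves it was 5.21 points, above the median between OPC and newly formed cells, although the first compares single libraries and the second means. A difference of 20 points or more was reached by 33 genes from newly formed oligodendrocytes, 51 from astrocytes, 82 from myelinating oligodendrocytes, 103 from microglia, 107 from neurons and 108 from endothelial cells, and by 21 genes between the OPC libraries. In the 19 called genes the order was another one: for 12 of them the largest difference from astrocytes was under 20 points, and for 7 that from newly formed oligodendrocytes. The 19 genes were chosen by these same shares, so their order only describes them and was not tested.

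A list of 40 genes with known cell type isoforms added further values. Only 5 of the 28 that reached 5 FPKM in OPC reached it in every purified library and were tested, and 1, Rtn4, was called. App, Bin1 and Clta were tested and not called, and the other genes described below were outside the test. Ntrk2 was mainly NM_008745 in OPC, at 91% and 88.3%, as in astrocytes at 91.8% and 92.4%, against 20.1% and 23.5% in neurons. App, the amyloid precursor protein, had NM_007471 at 65.3% and 67% in OPC, between astrocytes at 30.6% and 36.9% and newly formed oligodendrocytes at 88% and 85%. Nfasc, the adhesion molecule neurofascin, had NM_182716 at 23.5% and 25.3% in OPC, 89.9% and 89.1% in neurons and 0.700% and 0.571% in newly formed oligodendrocytes. Gria4 was mainly NM_019691, at 84% and 85.5% in OPC and 29.9% and 41.7% in neurons. Bin1 and Clta, genes of membrane bending and coated vesicles, had the form that is rare in neurons at 88.7% and 86.8% and at 80.8% and 80.7% in OPC. In neurons that form took 2.62% and 2.41% for Bin1 and 1.31% and 2.07% for Clta. Pdgfra itself was 92.8% and 95.5% NM_011058 in OPC and 93.8% and 95.4% in newly formed oligodendrocytes.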

How the data were processed

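Polyadenylated RNA of purified mouse cortical cells and of whole cortex was sequenced in 17 libraries, grouped by the cell type in their labels. The authors deposited FPKM per RefSeq gene and per isoform, and mm9, Bowtie 0.12.7, TopHat 1.3.3, Cufflinks 1.3.0 and CASAVA are named for the processing, per the submitters' processing notes; parameters are not given in the sources used here. How reads were divided among isoforms and paralogs sets the shares and the levels of near-identical genes. Whole reads could not be recovered, so the depth per library is unknown.

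Of 22462 genes, 14011 with at least 1 FPKM in 2 or more libraries were tested with limma 3.58.1 (R 4.3.3; trended prior, Benjamini-Hochberg adjustment) on log2(FPKM + 1), with 1 mean per group over all 17 libraries. The contrast was OPC minus the mean of 6 group means, and for each type the least favourable one-sided p. Isoform shares were tested with diffSplice and Simes' method in genes whose isoforms summed to 5 FPKM or more in all 14 purified libraries, for isoforms with a share of at least 5% in 2 or more. Of 28408 isoforms, 1 was left out. On simulated data, genes changed by 1.5 on the log2 scale were called against the mean for 97.0% of 33 lowered and 97.1% of 34 raised genes, and against each type for 78.8% and 79.4%. The changed genes were drawn only from genes of higher mean level, and all other groups were given the same mean. These shares therefore do not apply to genes at low levels or to genes on which the other types differ from one another.

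Genes are named when among the 15 with the largest differences among those higher or lower than each type, the 10 largest against the mean, the 6 largest of a list, or a precursor marker, with unnamed transcripts passed over; Acan, Bcan, Cntn2, Cntnap2, Fgfr2, Hapln2, Id1, Lpar1, Mbp, Mki67, Nkx6-2, Sema4d, Slc6a13, Slitrk1, Smoc1, Sox3, St18, Tnc, Cwc22, Luc7l3 and Ccl3 were chosen after their values were seen. Some genes that this rule names are not reported here. The members and gene lists were chosen with earlier results of these data known. Figures and tables used Python 3.11.15 with numpy 2.4.6, pandas 2.3.3 and matplotlib 3.10.9. Sequences come from GRCm38 with GENCODE vM21, matched by RefSeq identifier. Alternatives changed the pseudocount, filter, scaling, prior, thresholds, libraries and types used.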

Additional observations from a re-analysis of the deposited data

How the results depend on the processing

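The counts against the mean, 2282 higher and 322 lower, were 3796 and 557 with a pseudocount of 0.1, 1508 and 541 with median-of-ratios scaling, and 613 and 27 at a log2 threshold of 2. The 209 genes higher than in each type became 134 with median-of-ratios scaling, 33 at that threshold, and 394, 508 and 370 when astrocytes, neurons or microglia were left out as a type, where fewer types have to be exceeded. The 1 gene lower than in each type became 3 with the pseudocount of 0.1 and with median-of-ratios scaling, 2 with a constant prior, 10, 6 and 5 without astrocytes, neurons or microglia as a type, and 0 with no filter, a common sum, only purified libraries, the replicate block or the threshold of 2. The 19 isoform genes became 73 and 5 at a gene sum of 1 and 10 FPKM, 59 and 4 at 10 and 30 points, and 29 without neurons as a type. Leaving out 1 library at a time gave 2206 to 2677 higher, 316 to 378 lower, 184 to 231 higher than in each, 0 to 1 lower than in each and 16 to 23 isoform genes.

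Same-numbered libraries of OPC, newly formed oligodendrocytes, microglia and endothelial cells deviated together (correlations of 0.148 to 0.726, OPC with newly formed oligodendrocytes highest). Those of the other pairs of groups were -0.246 to 0.0622, so not all groups share the pattern. The labels name no shared batch, and the numbers were not taken as pairs. With the replicate block the counts were 2280, 321, 206 and 0, and 20 for isoforms. The block fits a single shift common to all groups, so it cannot take up a pattern that only some groups share. Differences that changed sign were those of Foxj1 against the mean (-0.0723 with median-of-ratios scaling, -0.0508 without microglia and -0.0162 without endothelial cells as a type, -0.33 to 0.67 without 1 OPC library), Reln (0.00064 without neurons), Ier3 (0.21), Junb (0.064) and Sqle (-0.021) without microglia, and Abcc9 (0.25), Cdkn2b (0.10), Kcnj8 (0.11) and Ly6c1 (0.15) without endothelial cells. The cause was not tested. Among named genes, calls of Cd14, Fgfr3, Itpr2, Npy, Rbl1 and Syt1 were lost with median-of-ratios scaling, those of the erythroid genes, Tlr7, Cd14, Fgfr3 and Itpr2 without OPC replicate 1, and those of Cldn5, Esam, Ly6c1, Sdc1, Slc17a7, Syt1 and Dusp1 without OPC replicate 2. Low levels are limited by the floor of 0.1 FPKM and by a depth that is unknown.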
